A study of Mus musculus with 18 samples.

Results

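The mouse vomeronasal receptor genes were followed across 5 histone marks in embryonic stem cells. They were taken as the protein-coding genes of chromosomes 1 to 19 whose symbol begins with Vmn1r or Vmn2r in the RefSeq annotation of GRCm38.p6. There were 354 such genes among 20665 protein-coding genes, 231 Vmn1r and 123 Vmn2r. Each was measured over its body with 2 kb on each side, in 1 kb windows, and windows with 0 reads in all 18 tracks were left out. At least 1 window remained for 311 members (191 Vmn1r and 120 Vmn2r), and all levels and tests of the marks refer to these.

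Chromatin immunoprecipitation with sequencing gave 18 libraries in 9 groups of 2. Every group came from E14 cells, a single pluripotent mouse line, grown in 2i/LIF medium, in which LIF and small-molecule blockers of the kinases MEK and GSK3 keep the naive state. In all groups the medium carried arginine and lysine in light, medium or heavy isotope form. Untreated cells, without spike-in, gave 10 libraries, 2 for each of H3K36me3, H3K36me2, H3K27me3, H3K27me2 and H3K27me1. In the other 8, which were quantitative, cells received 10 µM EPZ-6438, which blocks EZH2, the enzyme that methylates H3K27, or the same volume of its solvent DMSO for 7 days, and Drosophila S2 chromatin was added at 0.05% of the total before H3K27me3 or H3K36me2 was precipitated. The labels do not say whether the replicates of a group were separate cultures, so p-values measure only the spread between these libraries, which may be technical.

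Vomeronasal receptors are G protein-coupled receptors of the sensory neurons of the vomeronasal organ, where they detect pheromones and other social and predator cues. V1R receptors (Vmn1r) have a coding region in a single exon and work in apical neurons with the G protein subunit Gnai2. V2R receptors (Vmn2r) have a long extracellular domain encoded by several exons and work in basal neurons with Gnao1. In both neuron types the channel Trpc2 carries the signal. The genes lie in tandem clusters that grew by duplication. Of the marks, H3K27me3 is placed by the Polycomb complex PRC2 over silent genes, H3K36me3 lies over transcribed gene bodies, and H3K27me1, H3K27me2 and H3K36me2 are broader.

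The promoters of these genes held few CG dinucleotides. RefSeq promoter sequences (GRCm38.p6, 250 bases before and 50 after the start of a transcript) matched 322 of the 354 members. Their median CG count was 1 in 300 bases (range 0 to 23), against 14 over 16457 promoters of protein-coding genes and 1 over 938 promoters of olfactory receptor genes (Olfr), another large family of chemosensory receptors. At most 2 CG dinucleotides were found in 262 of 322 promoters (81.4%), against 18.6% of all promoters. The median GC content was 36.7%, against 56.7%. The letters TATAAA, searched on both strands, were in 114 promoters (35.4%), against 13.5% of all promoters. Olfactory receptor promoters were alike, with 85.6% holding at most 2 CG, a GC content of 35.0% and TATAAA in 41.2%. A match is a description of the letters only.

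The promoters below belong to the 2 members of each family with the highest and the 2 with the lowest untreated H3K27me3 among those with at least 10 windows, followed by the promoter with the most CG and the promoter that most members share. CG dinucleotides are in capitals, and each sequence runs 5′ to 3′ on the strand of its gene. The highest Vmn1r were Vmn1r41 (chr6:89740638-89740937, plus strand) and Vmn1r51 (chr6:90122393-90122692, plus strand). The lowest Vmn1r were Vmn1r14 (chr6:57233189-57233488, plus strand) and Vmn1r30 (chr6:58435796-58436095, minus strand). In these last 2 genes the transcript start used lies inside the annotated span of the gene. The highest Vmn2r were Vmn2r53 (chr7:12606495-12606794, minus strand) and Vmn2r56 (chr7:12733056-12733355, minus strand). The lowest Vmn2r were Vmn2r43 (chr7:8260550-8260849, minus strand) and Vmn2r39 (chr7:9030633-9030932, minus strand). Vmn2r29 (chr7:7278240-7278539, minus strand) held the most CG dinucleotides, 23, at a GC content of 62.3%. Vmn1r111 (chr7:20703167-20703466, minus strand) shared all 300 bases with 5 other members, Vmn1r118, Vmn1r131, Vmn1r138, Vmn1r166 and Vmn1r257.
Vmn1r41: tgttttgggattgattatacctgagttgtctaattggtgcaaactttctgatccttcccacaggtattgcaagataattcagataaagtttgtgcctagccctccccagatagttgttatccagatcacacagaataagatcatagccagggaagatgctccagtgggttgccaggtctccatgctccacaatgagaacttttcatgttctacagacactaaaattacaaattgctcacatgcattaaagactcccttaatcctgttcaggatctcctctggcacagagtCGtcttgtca
Vmn1r51: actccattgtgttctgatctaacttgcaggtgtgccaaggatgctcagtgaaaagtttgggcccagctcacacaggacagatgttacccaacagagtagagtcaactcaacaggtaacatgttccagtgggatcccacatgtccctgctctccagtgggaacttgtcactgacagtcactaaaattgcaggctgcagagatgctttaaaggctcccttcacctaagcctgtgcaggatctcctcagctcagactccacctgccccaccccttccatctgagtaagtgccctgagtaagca
Vmn1r14: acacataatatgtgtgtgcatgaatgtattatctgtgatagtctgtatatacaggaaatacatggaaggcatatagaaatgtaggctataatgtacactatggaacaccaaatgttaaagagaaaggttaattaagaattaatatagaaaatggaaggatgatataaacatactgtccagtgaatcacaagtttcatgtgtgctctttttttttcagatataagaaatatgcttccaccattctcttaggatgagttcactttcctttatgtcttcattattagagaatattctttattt
Vmn1r30: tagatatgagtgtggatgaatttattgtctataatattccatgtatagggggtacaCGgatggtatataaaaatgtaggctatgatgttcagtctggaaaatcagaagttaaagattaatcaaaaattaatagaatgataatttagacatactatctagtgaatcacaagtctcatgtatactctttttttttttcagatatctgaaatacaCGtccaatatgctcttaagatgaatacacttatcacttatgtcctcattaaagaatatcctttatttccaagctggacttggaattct
Vmn2r53: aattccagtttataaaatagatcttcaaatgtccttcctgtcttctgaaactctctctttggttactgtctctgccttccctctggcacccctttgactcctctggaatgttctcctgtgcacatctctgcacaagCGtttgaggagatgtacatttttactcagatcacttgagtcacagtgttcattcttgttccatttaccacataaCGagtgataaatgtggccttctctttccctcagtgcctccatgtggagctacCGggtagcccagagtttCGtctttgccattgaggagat
Vmn2r56: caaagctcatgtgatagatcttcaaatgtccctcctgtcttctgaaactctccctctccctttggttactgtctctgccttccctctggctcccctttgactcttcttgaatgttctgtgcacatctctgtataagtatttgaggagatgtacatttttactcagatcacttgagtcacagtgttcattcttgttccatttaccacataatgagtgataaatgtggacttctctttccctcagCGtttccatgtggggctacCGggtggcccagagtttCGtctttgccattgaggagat
Vmn2r43: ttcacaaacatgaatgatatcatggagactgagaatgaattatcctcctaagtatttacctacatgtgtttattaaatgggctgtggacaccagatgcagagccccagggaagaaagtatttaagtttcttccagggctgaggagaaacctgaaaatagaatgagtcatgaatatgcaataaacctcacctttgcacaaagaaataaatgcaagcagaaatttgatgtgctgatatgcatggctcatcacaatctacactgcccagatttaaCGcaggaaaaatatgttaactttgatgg
Vmn2r39: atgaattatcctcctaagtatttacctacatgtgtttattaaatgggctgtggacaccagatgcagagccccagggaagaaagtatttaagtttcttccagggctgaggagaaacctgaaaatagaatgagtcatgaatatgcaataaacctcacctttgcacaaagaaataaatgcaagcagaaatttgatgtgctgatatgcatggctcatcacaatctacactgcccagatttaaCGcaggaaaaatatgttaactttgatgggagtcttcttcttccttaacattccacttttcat
Vmn2r29: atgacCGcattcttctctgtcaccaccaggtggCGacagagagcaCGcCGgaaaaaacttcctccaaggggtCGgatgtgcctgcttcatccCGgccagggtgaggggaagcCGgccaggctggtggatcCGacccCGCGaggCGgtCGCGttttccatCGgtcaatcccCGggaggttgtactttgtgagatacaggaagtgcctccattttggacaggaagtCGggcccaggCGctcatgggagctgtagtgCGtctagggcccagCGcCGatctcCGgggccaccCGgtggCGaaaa
Vmn1r111: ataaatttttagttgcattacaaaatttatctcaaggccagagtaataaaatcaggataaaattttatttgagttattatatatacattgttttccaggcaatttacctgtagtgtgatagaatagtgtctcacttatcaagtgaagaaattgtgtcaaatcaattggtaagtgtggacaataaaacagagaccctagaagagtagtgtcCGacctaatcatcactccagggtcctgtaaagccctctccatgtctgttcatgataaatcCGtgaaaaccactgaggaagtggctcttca

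CG counts were low in both sets. The 4 printed members chosen as high in H3K27me3 had 1, 0, 4 and 3 CG dinucleotides in the order printed, and the 4 chosen as low had 0, 2, 1 and 1. The 7 members that met an H3K27me3 peak of the authors had a median of 3, and 42.9% of them had at most 2. These are descriptions of few genes. Vmn1r30 was low only among the 9 Vmn1r genes with at least 10 windows, and its H3K27me3 level (0.303) lay above the Vmn1r median (0.233). The promoters of Vmn2r43 and Vmn2r39 were near copies of other promoters: 86.9% and 97.6% of their 50-base words also occurred in the promoter of another protein-coding gene. Among the high members the share was 75.3% in Vmn1r51, 17.1% in Vmn2r53, 10.8% in Vmn2r56 and 0% in Vmn1r41.

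Sequence shared between members went with the windows that held no reads. Of 5007 distinct windows over the 354 members, 13.3% had 0 reads in all 18 tracks, against 4.88% of windows over the genome. No window remained for 43 members, of which 38 lie in a cluster of 86 Vmn1r genes on chromosome 7 (20101158 to 24055691). A further 3 lie below position 3000000 of their chromosome, where windows held 0 reads in all tracks, whatever their sequence. Among the 37 of these 43 with a promoter entry, the median share of 50-base words found in another promoter was 100%, and 34 promoters were identical to another. Among the 223 promoters of members with every window kept, the median share was 0%. How reads that map to several places were treated is not given in the sources used here, so low signal and lost reads cannot be told apart where members are near copies.

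**Figure D1:**
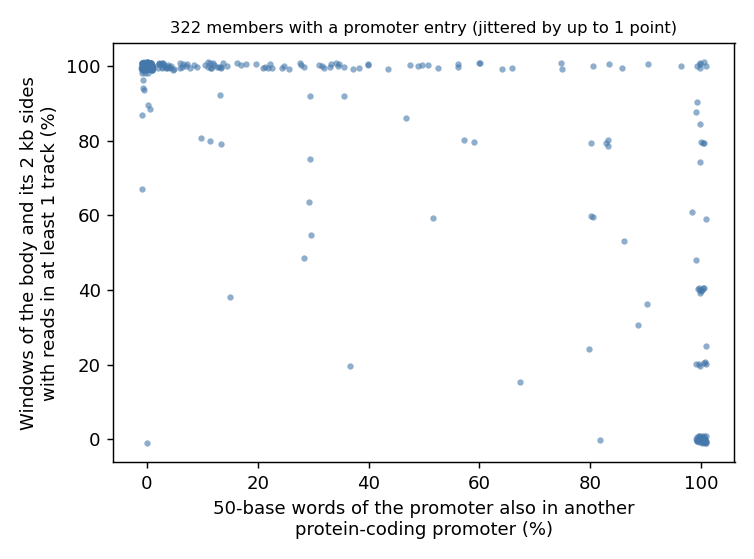
Share of the 50-base words of each promoter that also occur in another protein-coding promoter (x axis, %) against the share of windows of the gene with reads in at least 1 track (y axis, %), for 322 members, 1 point a member. Of the 37 members without any window with reads, 35 sit at the lower right, where the promoter is shared in full, with Vmn1r100 (82.5%) and Vmn1r148 (0%), named after their values were seen, as the exceptions, and members with all windows kept gather at the upper left.

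H3K36me3 lay above the genome mean over 8 of 8 pluripotency genes (median 4.83 times, range 1.34 to 6.88), with Pou5f1, the gene of Oct4, at 6.88. Of all 20448 protein-coding genes with a value, 13962 and 13964 lay above the genome mean in the 2 libraries, with a median of 1.84. Reads counted in windows, in units of 1000000, were 22.9 to 67.5 in the untreated libraries, 21.6 and 27.9 for H3K27me3 after DMSO, 50.5 to 112 for quantitative H3K36me2, and only 0.992 and 1.78 for H3K27me3 after the inhibitor. No input library was used here.

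In untreated cells all 5 marks were low over vomeronasal receptor genes, H3K27me1 and H3K27me2 least so. A level is the mean of a library over the windows of a gene, divided by the mean of that library over all windows, so 1 is the genome mean. These libraries had no spike-in, so levels compare shares of reads, and an order of marks is not an order of amounts. Averaged over the 311 members H3K27me1 stood at 0.663 ± 0.0479 (SD, n = 2) and H3K27me2 at 0.553 ± 0.0351. H3K27me3 stood at 0.247 ± 0.0395, H3K36me2 at 0.220 ± 0.0303 and H3K36me3 at 0.137 ± 0.0225. The marks thus fell in that order, except that the ranges of H3K27me3 (0.220 and 0.275) and H3K36me2 (0.199 and 0.242) overlapped.

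The medians over members were 0.668, 0.552, 0.202, 0.127 and 0.0903 for the same marks. Over all protein-coding genes they were 1.27, 1.26, 0.619, 1.41 and 1.84. H3K36me3, the mark of transcribed bodies, was thus the furthest below other genes. The 1101 olfactory receptor genes had medians of 0.727, 0.640, 0.302, 0.217 and 0.129, each between the members and all genes. Members with every window kept (245, a setting added after the data were seen) had means of 0.778, 0.654, 0.288, 0.267 and 0.162. They kept the same order of marks. Their medians were 0.734, 0.612, 0.236, 0.159 and 0.112. These members were thus not below the olfactory receptor genes in H3K27me1, and were close to them in H3K27me2.

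**Figure D2:**
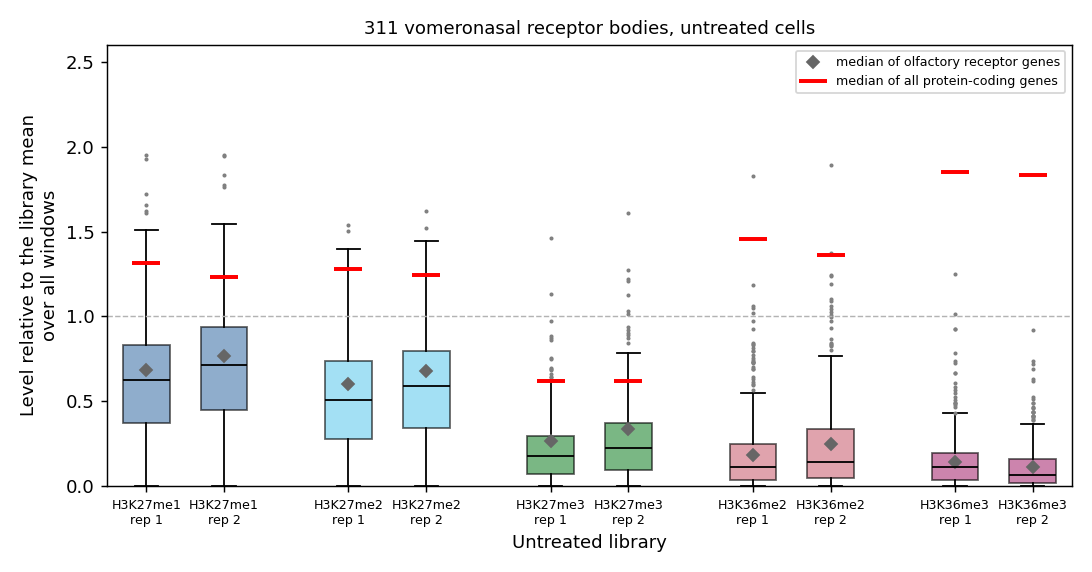
Level relative to the library mean over all windows (y axis, no unit) for 311 vomeronasal receptor bodies in each of the 10 untreated libraries (x axis). Boxes span the quartiles with the median as a line, whiskers reach 1.5 times the box, grey points lie beyond, diamonds and red lines mark the medians of olfactory receptor genes and of all protein-coding genes, and the dashed line is the genome mean. In every library the box lies below the genome mean and below the red line.

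Gene by gene, H3K27me1 led in the level relative to the genome mean. Both of its libraries were above both H3K36me3 libraries in 297 of 311 members, where 29.0% of all protein-coding genes showed this, and above both H3K36me2 libraries in 290, against 45.9% of all genes. They were above both H3K27me3 libraries in 273 members, against 58.6%. Olfactory receptor genes showed these orders in 95.0%, 87.7% and 75.7%. H3K27me2 was above H3K36me2 in the same sense in 279 members, against 29.1% of all genes, and above H3K27me3 in 258, against 63.1%. H3K27me1 and H3K27me2 themselves were closer, with H3K27me1 above in 163 members (36.1% of all genes) and H3K27me2 above in 24 (39.3%).

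Members varied together across marks. Over the 311 members the Spearman correlation of mean levels was 0.910 between H3K27me1 and H3K27me2, 0.910 between H3K36me2 and H3K36me3, 0.846 between H3K27me1 and H3K36me2, and 0.588 between H3K27me3 and H3K36me2. These are descriptions across genes. The points share libraries, and neighbouring genes share windows. Members that lost windows are among the 311. The cluster of 86 Vmn1r genes on chromosome 7 kept 40.0% of its windows. Its 48 measured genes had mean levels of 0.209 in H3K27me1, 0.170 in H3K27me2, 0.0798 in H3K27me3, 0.0344 in H3K36me2 and 0.0173 in H3K36me3. Correlations over members with every window kept, or over all genes, were not taken. The part of lost reads in these values was thus not tested.

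Among members with at least 10 windows kept, those with the most H3K27me3 lay near the genome mean. Vmn1r41, a V1R gene on chromosome 6 (89740888 to 89747414), had an H3K27me3 level of 0.698 and 1.01 in the 2 libraries, and H3K36me2 of 0.250 and 0.344. Vmn1r51 (chr6:90122643-90130645), in the same cluster, had H3K27me3 of 0.693 and 0.890 and H3K36me2 of 0.215 and 0.243. In both genes the libraries of the 2 marks did not overlap.

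Among V2R genes, Vmn2r53 (chr7:12581470-12606544) had an H3K27me3 level of 0.750 and 0.875 and H3K36me2 of 0.144 and 0.182. Its neighbour Vmn2r56 (chr7:12693860-12733320) had H3K27me3 of 0.688 and 0.711 and H3K36me2 of 0.217 and 0.287. Both had a higher level of H3K27me1 than of H3K27me3, at 0.952 and 1.13 in Vmn2r53.

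At the low end, Vmn2r43 (chr7:8244348-8260599) and Vmn2r39 (chr7:9014750-9030682) had an H3K27me3 level of 0 in both libraries. Their H3K27me1 was also near 0, at 0.0356 and 0.0494 in Vmn2r43 and 0.0489 and 0.0402 in Vmn2r39. These are the near copies whose promoters are printed above, and 11 of 21 and 12 of 20 of their windows had reads. The part of shared sequence in these levels was not tested.

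The lowest V1R genes under the same limit, with unshared promoters, still held signal, but few V1R genes met that limit. Over all 191 Vmn1r genes the mean H3K27me3 level was 0.269 and the median 0.233. In the 2 libraries 23 and 18 Vmn1r genes stood at 0. Vmn1r30, at a mean of 0.303, was thus low only among the genes compared. Vmn1r14 (chr6:57226155-57234350) had an H3K27me3 level of 0.190 and 0.219 and an H3K27me1 level of 0.563 and 0.750. Vmn1r30 (chr6:58434848-58443624) had H3K27me3 of 0.259 and 0.346 and the highest H3K36me3 of the V1R genes compared, 0.203 and 0.415. Vmn1r63 on chromosome 7 (5802345 to 5826229) came next in H3K36me3 with 0.300 and 0.238, and its H3K27me1 was above the genome mean, at 1.61 and 1.77. Only 9 Vmn1r genes had the 10 windows with reads that this choice asked for, since the median Vmn1r body is 924 bp long, against 24544 bp for Vmn2r.

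A few V2R genes carried H3K36me3 at levels not far under the genome mean. Vmn2r85 on chromosome 10 (130418261 to 130429612) had an H3K36me3 level of 0.929 and 0.718, with H3K36me2 of 0.691 and 0.742 and H3K27me3 of 0.0196 and 0.0644. Vmn2r79 (chr7:86996465-87037968) had H3K36me3 of 0.725 and 0.619 and H3K27me3 of 0.113 and 0.106. In both, every H3K36me3 library was above every H3K27me3 library.

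H3K36me2 was highest, among members with at least 10 windows, in Vmn2r3 and Vmn2r90. Vmn2r3, on chromosome 3 (64258961 to 64287426), had 1.05 and 1.24. Vmn2r90, at the edge of the chromosome 17 cluster (17703941 to 17734167), had 1.02 and 1.04. Their H3K27me3 was 0.159 and 0.149 in Vmn2r3 and 0.328 and 0.254 in Vmn2r90. Among long V1R genes Vmn1r4 was highest, with H3K36me2 of 0.344 and 0.359, and its body overlaps Nt5c3, so its windows are shared with that gene.

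The levels differed between clusters. Members at most 1 Mb apart formed 28 clusters, of which 9 held at least 10 members and together 290 members. The cluster on chromosome 13 (22087878 to 23250323, 36 Vmn1r genes) stood out by H3K36me2. Its mean H3K36me2 level was 0.577 and 0.710 in the 2 libraries and its H3K27me3 level 0.272 and 0.250. Its H3K27me1 level was 0.904 and 1.07, and 99.4% of its windows held reads. The highest H3K36me2 in the other 8 clusters was 0.278 and 0.353, in the cluster of Vmn1r41 and Vmn1r51 on chromosome 6 (89711261 to 90270053).

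The other clusters differed in how much of the marks they held and in the balance between marks. The 86 Vmn1r genes on chromosome 7 were lowest of these 9 clusters in all 5 marks, with an H3K27me1 level of 0.198 and 0.221, H3K27me3 of 0.0703 and 0.0893 and H3K36me2 of 0.0312 and 0.0376. Only 40.0% of their windows held reads, and 48 of the 86 had a value. The cluster of Vmn1r41 had the most H3K27me3 of the 9, 0.473 and 0.615, with 98.0% of windows kept. In the 15 Vmn2r genes of a further chromosome 7 cluster (84940169 to 87037968), with 100% of windows kept, H3K27me3 was 0.112 and 0.137 and H3K36me2 0.168 and 0.199.

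**Figure D3:**
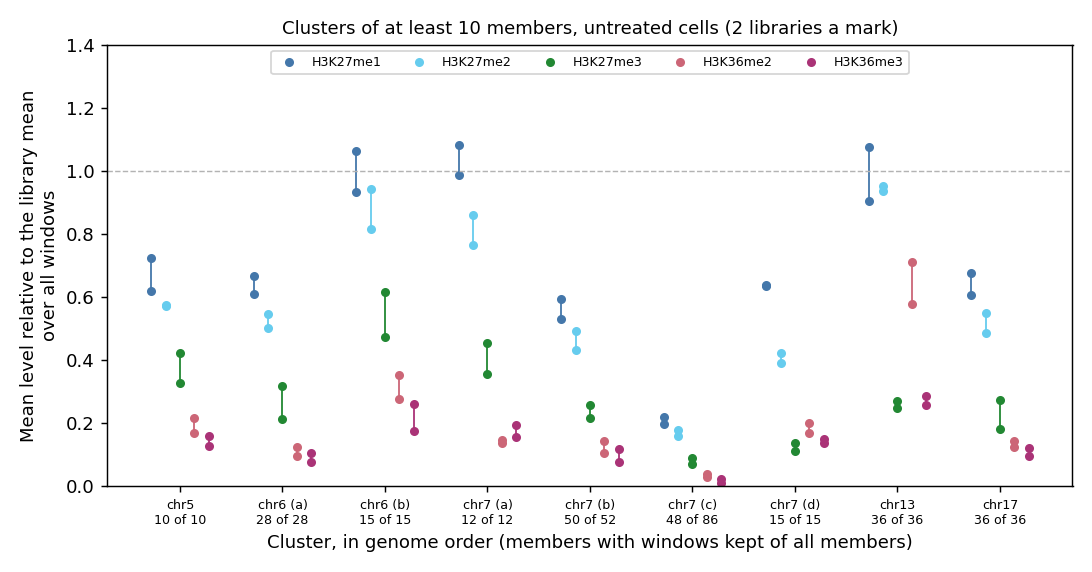
Mean level relative to the library mean (y axis, no unit) of 5 marks in the 9 clusters of at least 10 members (x axis, letters number the clusters along a chromosome), with 1 point for each of 2 untreated libraries joined by a line. The H3K36me2 points of chromosome 13 stand above those of H3K27me3, while in 7 of the other 8 clusters the H3K27me3 points stand above those of H3K36me2.

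H3K27me3 and H3K36me2 were compared in untreated cells, on log2(RPM + 0.05) per window, where RPM is reads per 1000000. These libraries had no spike-in, so the contrast sets shares of reads side by side. Here and below, more of a mark means a larger share of the reads of its libraries, not a larger amount. Of 263 members with reads in all 4 libraries, 132 had more H3K27me3 (50.2%, against 29.3% of all genes tested) and 65 had more H3K36me2 (24.7%, against 55.6% of all genes) at an adjusted p under 0.05 (limma, Benjamini-Hochberg over 20101 genes). The median difference was 0.40 over the members and -0.69 over all genes. The 1076 olfactory receptor genes tested were alike in shares, with 50.8% higher in H3K27me3, 20.4% higher in H3K36me2 and a median of 0.44. With a pseudocount of 0.5 in place of 0.05 the count with more H3K27me3 was 84 of 263 members, against 5804 of 20101 genes. The medians were 0.09 and -0.39. On that scale most of the excess in H3K27me3 calls over other genes was lost. The count with more H3K36me2 was 49 of 263 members, against 11206 of 20101 genes. A pseudocount of 0.5 is near the genome mean of these libraries (0.503 RPM), and most members lie below that mean. It thus shrinks their differences in either direction, so the low count cannot show whether that side of the contrast remained. Without any pseudocount, both H3K27me3 libraries were above both H3K36me2 libraries in 161 of 311 members (51.8%, against 33.3% of all genes), and the reverse held in 75 (24.1%, against 58.2%). Leaving out 1 library at a time gave 102 to 148 members with more H3K27me3 and 46 to 68 with more H3K36me2, against 5269 to 5724 and 10649 to 11050 of all genes.

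The direction differed between clusters. Beside the counts below, 29.3% of all genes tested had more H3K27me3 and 55.6% more H3K36me2. All counts by cluster rest on the pseudocount of 0.05. On chromosome 13, 29 of 35 tested members had more H3K36me2 and 0 more H3K27me3 (median -0.89). Outside it, 132 of 228 had more H3K27me3 and 36 more H3K36me2. The chromosome 6 cluster of Vmn1r14 and Vmn1r30 (56923914 to 58472878) had 21 of 28 with more H3K27me3 and 0 with more H3K36me2. The first cluster of chromosome 7 with reads (5146490 to 6011010) had 11 of 12 and 0, and the chromosome 17 cluster (17703941 to 21314886) had 20 and 2 of 36. The cluster of Vmn1r41 had 9 and 3 of 15, that of 52 members on chromosome 7 had 22 and 4 of 38, that of 86 members had 9 and 0 of 14, and that of 10 on chromosome 5 had 8 and 1 of 10. No direction led in the 15 Vmn2r genes further along chromosome 7, with 4 and 3. Smaller clusters could also be mixed, with 3 and 4 of 7 on chromosome 3 and 3 and 3 of 8 on chromosome 6, both named after their values were seen. The 2 clusters of 4 Vmn2r genes on chromosome 10, singled out after their values were seen, had 3 and 4 members with more H3K36me2 and 0 with more H3K27me3.

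The same split showed in the plain order of the libraries. Both H3K36me2 libraries were above both H3K27me3 libraries in 32 of 36 members of the chromosome 13 cluster and the reverse held in 1, where 58.2% and 33.3% of all genes showed these orders. In the chromosome 6 cluster of 28 the counts were 0 and 21. Pooled over clusters, the median difference was alike in the families, 0.39 over Vmn1r and 0.41 over Vmn2r. More H3K27me3 and more H3K36me2 were called in 76 and 41 of 156 Vmn1r and in 56 and 24 of 107 Vmn2r. Of the 41 Vmn1r calls, 29 lie in the chromosome 13 cluster, which holds only Vmn1r. The pooled values thus do not show how the families compare outside it.

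**Figure D4:**
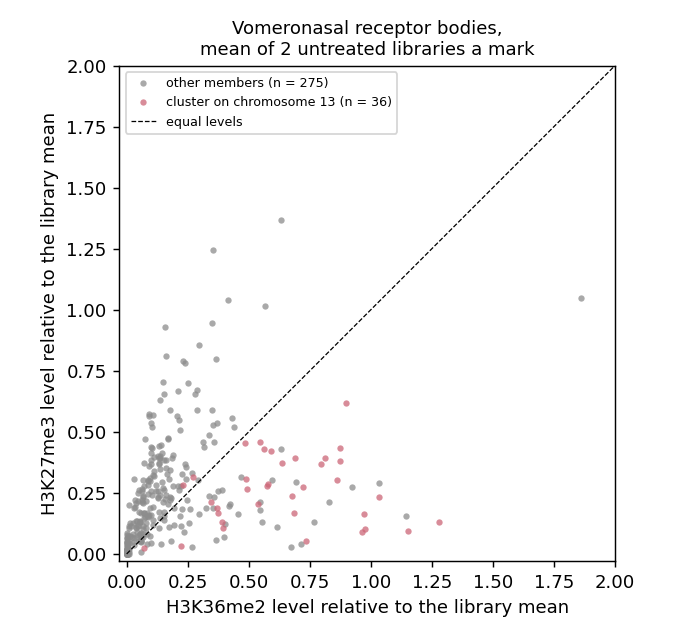
H3K36me2 (x axis) against H3K27me3 (y axis), each as the level relative to the library mean and averaged over 2 untreated libraries, for 311 members, 1 point a member. The 36 members of the chromosome 13 cluster (red) lie mostly below the line of equal levels and the other 275 (grey) mostly above it.

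Single members show the 2 patterns. Vmn2r53 had more H3K27me3 by 1.80 ± 0.16 (log2, SE), and its libraries are given above. In Vmn1r5, a V1R gene on chromosome 6, H3K27me3 was 0.345 and 0.375 and H3K36me2 0.0859 and 0.0973, a difference of 1.27 ± 0.15. Vmn2r85 differed by -2.55 ± 0.18 and Vmn2r3 by -2.29 ± 0.16. Each of these 4 differences had an adjusted p under 0.05 in limma.

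Within the chromosome 13 cluster 6 members met an H3K36me2 peak of the authors, and 3 of them, singled out after their values were seen, show the range. In Vmn1r212 (chr13:22883088-22884324) H3K36me2 was 1.19 and 1.37 and H3K27me3 0.110 and 0.150. In Vmn1r210 (chr13:22827194-22828114) H3K36me2 was 1.06 and 1.25 and H3K27me3 0.0941 and 0.0937. In Vmn1r192 (chr13:22187146-22188048) H3K36me2 was 0.976 and 1.09 and H3K27me3 0.204 and 0.262. The median distance from members of this cluster to the nearest protein-coding gene outside the 2 families was 191 kb.

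The authors' peak lists touched few members. A replicated H3K27me1 peak overlapped the body or its sides in 70 of 311 members (69.5% of all protein-coding genes), H3K27me2 in 25 (70.4%), H3K36me2 in 23 (76%) and H3K27me3 in 7 (51.1%). No peak of the 4 lists touched 235 members (75.6%), against 11.9% of all genes. Of the 23 members in an H3K36me2 peak, 20 also met an H3K27me1 peak and 14 an H3K27me2 peak, against 81.5% and 88.8% of all genes in an H3K36me2 peak. Olfactory receptor genes met the lists at 15.4%, 9.72%, 7.81% and 11.6%.

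The 7 members with an H3K27me3 peak were Vmn1r1, Vmn2r13, Vmn1r50, Vmn2r53, Vmn2r56, Vmn1r87 and Vmn2r59, of which all but Vmn2r53 and Vmn2r56 were named after their values were seen. Vmn1r87, a V1R gene on chromosome 7 (13131471 to 13132358), had the highest mean, with an H3K27me3 level of 1.46 and 1.27. Vmn1r1, a lone gene on chromosome 1 (182157178 to 182158098), was the only member in both an H3K27me3 and an H3K36me2 peak, with H3K27me3 of 0.973 and 1.12 and H3K36me2 of 1.83 and 1.89. In Vmn2r53, Vmn2r56, Vmn2r59 and Vmn2r13 peaks covered 12.04%, 8.05%, 7.81% and 3.75% of the measured stretch.

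Members far from other genes had less H3K27me3. The 174 members over 100 kb from any other protein-coding gene had a mean H3K27me3 level of 0.177 and 0.225 in the 2 libraries. The 116 members at 20 to 100 kb had 0.276 and 0.339, and the 21 within 20 kb had 0.260 and 0.342. H3K36me2 was 0.193 and 0.238, 0.198 and 0.240, and 0.252 and 0.288 in the same order. The medians over members within 20 kb and over 100 kb were 0.274 and 0.171 for H3K27me3 and 0.235 and 0.112 for H3K36me2. These are levels without a test, since members of a cluster are not independent.

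Between the families, pooled over clusters, the mean level of Vmn1r genes was somewhat higher in every group. The difference in log2 of the mean level, Vmn1r minus Vmn2r, was 0.16 ± 0.06 (SD, n = 2) in H3K27me1, 0.35 ± 0.02 in H3K27me2 and 0.33 ± 0.01 in H3K27me3. In H3K36me2 it was 0.39 ± 0.04 and in H3K36me3 0.10 ± 0.10. That of H3K36me3 was within the spread of its 2 libraries. The direction turned when windows with 0 reads were counted, for H3K27me1 (-0.049), H3K36me3 (-0.12) and quantitative H3K27me3 after DMSO (-0.031) and after the inhibitor (-0.12). In the last group the medians also went the other way, at 0 and 0.212 over Vmn1r against 0.277 and 0.269 over Vmn2r. Of the members without any window kept, 40 of the 43 were Vmn1r. The 36 genes of the chromosome 13 cluster, all Vmn1r, enter these means. Their mean H3K36me2 level was 0.643, against 0.242 over all Vmn1r and 0.185 over Vmn2r. In H3K27me1 it was 0.990, against 0.692 and 0.617, and in H3K36me3 0.273, against 0.141 and 0.130. The families were not compared without this cluster, so the pooled differences need not hold outside it.

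The EZH2 inhibitor lowered H3K27me3 over vomeronasal receptor genes about as far as over the genome. Mean scaled reads per window over the 311 members were 11.8 and 9.85 after DMSO and 0.0285 and 0.0222 after the inhibitor, on the scale of the deposited tracks, which was taken as the spike-in scale. Every DMSO value was above every inhibitor value. The fall was 429-fold (log2 -8.75), against 534-fold (-9.06) for the genome mean, 435-fold for the mean of all protein-coding genes and 603-fold for olfactory receptor genes. The exact two-sided permutation p was 0.33, the smallest that 2 against 2 libraries allow.

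Both inhibitor libraries were below both DMSO libraries in 274 of the 311 members (88.1%, against 98.8% of all genes and 97.0% of olfactory receptor genes). A member with 0 reads in a DMSO library cannot meet this order, and 37 of the 311 had 0 reads in at least 1 of them. Tested singly, 134 members had reads in all 4 libraries (45 Vmn1r and 89 Vmn2r) and 134 were lower after the inhibitor, as were 100% of all genes tested to 3 digits (limma on log2(scaled reads per window + 1), adjusted p at most 5.07e-05 in members). The filter left out the remaining 177 members: 82 had 0 reads in both inhibitor libraries, 94 in 1 of them, and 1 only in a DMSO library. In the tested members the log2 change ran from -5.38 to -1.44 with a median of -3.63, against -4.97 over all genes. This scale understates the fall where the level is low.

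Among members with at least 10 windows kept, the 2 largest changes of each family on the log scale were as follows. Vmn2r53 had 42.6 and 35.8 scaled reads per window after DMSO and 0.0645 and 0.0858 after the inhibitor, a change of -5.22 ± 0.25 (SE, limma). Vmn1r41 went from 30.9 and 30.7 to 0.0242 and 0.0297, a change of -4.95 ± 0.25. Vmn2r56 changed by -5.16 ± 0.26, from 41.7 and 32.8 to 0.0732 and 0.0507. Vmn1r4 had 34.7 and 26.96 after DMSO and 0.0981 and 0.0321 after the inhibitor, a change of -4.89 ± 0.26.

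The 2 smallest changes of each family, under the same limit and on the same scale, were as follows. Since 1 is added before the log and inhibitor values are near 0, this order mostly follows the DMSO level. It is not an order of fold falls, which ran from 46.4 to 1730 over tested members, with a median of 347. Vmn2r96 went from 1.90 and 1.62 scaled reads per window to 0.0194 and 0.0119, a change of -1.44 ± 0.25. Vmn2r126 went from 2.55 and 1.93 to 0.0259 and 0.0177, a change of -1.66 ± 0.25. Vmn1r32 had 7.92 and 6.74 after DMSO and 0.0807 and 0.0248 after the inhibitor, a change of -2.98 ± 0.25. Vmn1r5 changed by -3.82 ± 0.27, from 18.4 and 11.1 to 0.109 and 0.0594. In all 4, as in the members above, the arms did not overlap.

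The reads behind the inhibitor values are few. Summed over windows the 311 members held 588 and 1167 reads in the inhibitor libraries, against 10152 and 13874 after DMSO. Vmn1r41 rests on 1 and 3 reads there, and Vmn2r53 on 8 and 26. The fall rests on the scale of the tracks: on library totals, 27 of the 134 members were higher (42.9% of all genes) and 2 lower (11.1%). Relative to the genome mean the members went from 0.243 and 0.276 to 0.313 and 0.332, a log2 change of 0.32 (exact permutation p = 0.33).

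**Figure D5:**
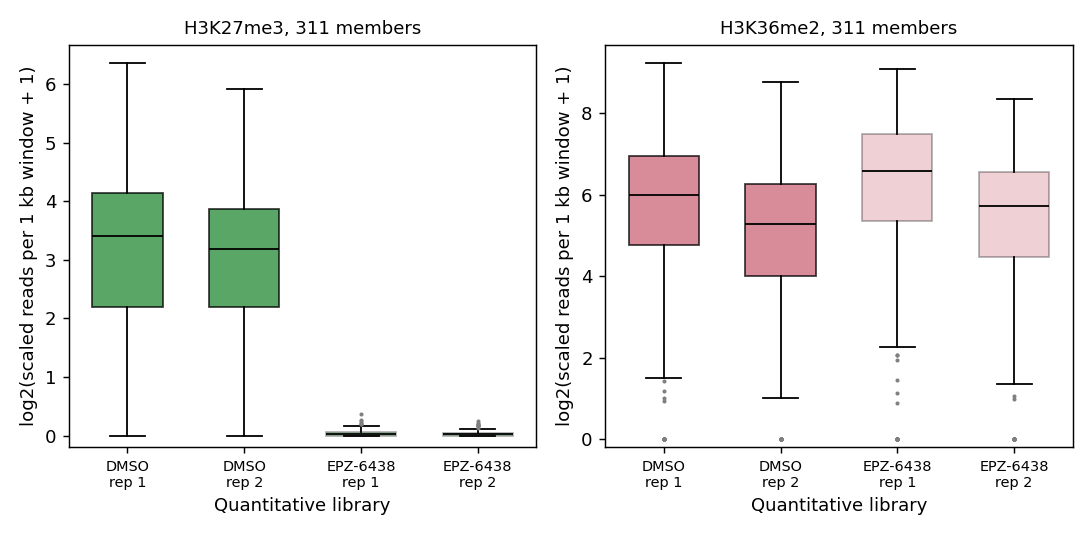
log2(scaled reads per 1 kb window + 1) (y axis) of 311 members in the 4 quantitative libraries of H3K27me3 (left) and of H3K36me2 (right), after DMSO or EPZ-6438 (x axis). Boxes span the quartiles with the median as a line and whiskers reach 1.5 times the box. The H3K27me3 boxes fall to near 0 after the inhibitor, while the H3K36me2 boxes of the 2 arms overlap.

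For H3K36me2 the arms overlapped in the mean over vomeronasal receptor genes, and 0 members passed the test, which treated the libraries as unpaired. Mean scaled reads per window over the 311 members were 88.9 and 54.0 after DMSO and 122 and 62.2 after the inhibitor, so the second inhibitor library lay between the DMSO libraries. The log2 change was 0.33 (exact permutation p = 0.667), against 0.20 for the genome mean. It ranged from -0.16 to 0.81 when 1 library was left out, and was below 0 without the second DMSO library (-0.03) or the first inhibitor library (-0.16).

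Of 275 members tested, 0 were called higher (0.00985% of all genes) and 0 lower (0% of all genes) in limma at an adjusted p under 0.05, and limma-voom on the recovered reads also called 0. At an unadjusted p under 0.05 limma had 25 (23 higher and 2 lower, 9.09% of members tested against 2.08% of all genes), and limma-voom 9, against 238 of 20295 genes. With 1 library left out the limma count ran from 7 to 95, and that over all genes from 48 to 1923. The smallest adjusted p among members was 0.675. The estimate was above 0 in 240 of 275 members (87.3%, against 68.6% of all genes and 92.4% of olfactory receptor genes), with a median of 0.43, against 0.07 over all genes and 0.55 over olfactory receptor genes. The estimate rested on single libraries, and that of all genes shifted with it. Without the first inhibitor library 122 of 276 members were above 0 (median -0.067, against -0.27 over all genes). Without the second DMSO library 161 of 280 were (median 0.050, against -0.19). Without the first DMSO or the second inhibitor library the medians were 0.76 and 0.86, against 0.34 and 0.44. The median of members thus stayed above that of all genes each time. On library totals the median of all genes shifted to -0.14 and that of members to 0.23.

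Library by library, 48 of 311 members had both inhibitor values above both DMSO values (6.53% of all genes) and 4 had both below (0.377%). Relative to the genome mean the counts were 117 (17.7% of all genes) and 26 (39.9%). The mean level of the members on that scale was 0.275 and 0.253 after DMSO and 0.301 and 0.275 after the inhibitor, and the arms overlapped.

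Among V2R genes with at least 10 windows kept, Vmn2r9 and Vmn2r113 had the largest H3K36me2 estimates. Vmn2r9 had 50.5 and 15.9 scaled reads per window after DMSO and 107 and 48.6 after the inhibitor, an estimate of 1.31 ± 0.49 (SE). Vmn2r113 had 20.9 and 10.37, then 54.0 and 26.6, an estimate of 1.30 ± 0.49. In Vmn2r113 the arms did not overlap, and in Vmn2r9 they did.

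Among V1R genes with as many windows, Vmn1r5 had 53.0 and 38.9 after DMSO and 96.2 and 56.1 after the inhibitor, an estimate of 0.68 ± 0.49. Vmn1r32 had 68.2 and 50.0, then 141 and 61.2, an estimate of 0.66 ± 0.49. At the other end, under the same limit, Vmn2r36 had 1.84 and 3.03 after DMSO and 0.866 and 0.981 after the inhibitor, an estimate of -0.81 ± 0.49. Vmn2r129 had 53.9 and 41.7, then 45.2 and 27.9, an estimate of -0.41 ± 0.49. Vmn1r63 had 106 and 59.9, then 104 and 49.3, an estimate of -0.15 ± 0.49, and Vmn1r30 one of 0.08 ± 0.49. The arms did not overlap in Vmn1r5 and Vmn2r36 and overlapped in the other 3 with values given here, and 0 of these members passed the test. Vmn2r36 rests on very few reads, as 37.9% of its windows were kept. In these libraries 1 read counts as 9.52 to 11.1 scaled reads, so its mean was under 1 read per kept window in each. With 1 library left out the estimate ran from 0.51 to 2.12 in Vmn2r9, from 0.81 to 1.80 in Vmn2r113, from 0.30 to 1.07 in Vmn1r5 and from 0.065 to 1.26 in Vmn1r32. It ran from -1.07 to -0.56 in Vmn2r36 and from -0.74 to -0.066 in Vmn2r129.

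Other genes of vomeronasal neurons spanned a wide range of H3K27me3. In a list of 33 such genes, all measured, 24 had more H3K27me3 than H3K36me2 and 7 less in untreated cells (limma, adjusted p under 0.05), against 29.3% and 55.6% of all genes. An H3K27me3 peak met 22 of 33, against 51.1% of all genes. The median H3K27me3 level was 1.45. Neurog1, which sets neuronal fate in the olfactory lineage, stood at 13.6 ± 1.05 (SD, n = 2), and Lhx2, a homeobox factor, at 8.27 ± 0.788.

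The signalling genes were split. The channel gene Trpc2 had an H3K27me3 level of 5.25 ± 0.199 and the V2R partner Gnao1 one of 4.23 ± 0.483. Gnai2, the V1R partner, which many cell types express, had 0.194 ± 0.0360 and an H3K36me3 level of 6.02 ± 0.295. The formyl peptide receptor genes of the organ were closer to the vomeronasal receptors, with H3K27me3 of 0.504 in Fpr-rs3, 0.390 in Fpr-rs4, 0.152 in Fpr-rs6, 0.473 in Fpr-rs7 and 0.136 in Fpr3. After the inhibitor 29 of 29 tested genes of the list were lower in H3K27me3 (100% of all genes tested), and 0 of 33 were called for H3K36me2 (limma).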

How the data were processed

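Tracks and peak lists were used as the authors deposited them, on mouse build mm10, per the submitters' processing notes, which also name Trim Galore 0.4.2, Bowtie2 2.2.6.2 and SICER. The deposited tracks give log2 values in 1 kb windows every 500 bp. Each value was log2(1 + reads times a factor), since 100% of windows gave whole reads at a tolerance of 0.02. In untreated libraries the factor gives reads per 1000000 (RPM). In quantitative libraries it is the authors' own number, taken here as the spike-in factor, and how it was derived is not given in the sources used here. The score of each deposited peak, on a scale not stated, served solely to split each list at its median. Peaks are those the authors found in both replicates of a mark.

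Log values were undone, and windows that do not overlap were averaged per gene, a window counting with at least 500 bp inside the body with 2 kb on each side. Windows with 0 reads in all tracks were left out (4.88% over the genome, 13.3% over members). Contrasts were fitted with limma 3.58.1 (R 4.3.3) across all protein-coding genes of chromosomes 1 to 19 with a value above 0 in all 4 libraries, on log2 of the value + 1 (spike-in scale) or + 0.05 (RPM), with calls at 0.05 after Benjamini-Hochberg adjustment. These fits had no replicate block. Library means were compared with an exact two-sided permutation test. Replicates differed by more than counting noise in all 9 groups (chi-square per degree of freedom 2.20 to 20.4 over window reads per gene), so each was kept.

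Members with at least 10 windows kept were named within each family: the 2 highest and 2 lowest in untreated H3K27me3, the 2 highest in H3K36me3 and in H3K36me2, and the 2 largest and 2 smallest changes after the inhibitor. Members, lists and rules were chosen with earlier results of these data known. Alternatives tried were a replicate block, other pseudocounts, no filter, the body alone, empty windows kept, medians, library totals, limma-voom on recovered reads, stricter peaks and each replicate left out.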

Additional observations from a re-analysis of the deposited data

How the results depend on the processing

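The fall of H3K27me3 rests on the deposited scale. On library totals 27 members were higher and 2 lower in place of 134 lower, and single changes turned to 1.49 in Vmn1r32, 1.46 in Vmn1r5, 1.43 in Vmn2r96, 1.68 in Vmn2r126 and 0.027 in Vmn2r53, while Vmn1r4 (-0.02) and Vmn2r56 (-0.18) lost their calls. The mean relative to each library changed by 0.32, and with the median over members it changed by -9.07 on the deposited scale. Without the filter 274 of 311 members were called lower (20195 of 20448 genes), and with the median over windows 1, since 1 member was then tested (7304 of 7304 genes).

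For H3K36me2, calls higher were 1 without the filter (21 of 20448 genes), 4 over the body alone (25 of 20122), 1 with the median over windows (6 of 19922) and 0 to 3 with 1 library left out (0 to 57 genes). Calls lower were 1 without the filter (2 genes). With a replicate block 132 members were higher and 5 lower (13.8% and 0.197% of all genes), among them Vmn1r5, Vmn1r32, Vmn2r9 and Vmn2r113 (higher) and Vmn2r36 (lower). The mean of Vmn2r36 was under 1 read per kept window in each of these libraries. The same-numbered libraries of the 2 arms correlated in their deviations at 0.54, but 2 pairs do not show that the numbers pair the samples. For H3K27me3 (r = 0.11) the block left 134 members lower (18663 of 18666 genes), and for the untreated contrast (r = 0.26) it gave 139 and 70 (30.4% and 56.5% of all genes). With 1 library left out the mean H3K36me2 change ran from -0.16 to 0.81, below 0 without the second DMSO library (-0.03) or the first inhibitor library (-0.16). The estimate for Vmn1r63 was 0.10 with the median over windows and -0.68 to 0.38 with 1 library left out. That for Vmn1r30 was -0.12 on library totals and -0.41 to 0.57 with 1 library left out, and that for Vmn2r129 was 0.24 with the median over windows. The cause was not tested.

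In the untreated contrast a pseudocount of 0.5 left 84 of 263 members with more H3K27me3 (5804 of 20101 genes) and 49 with more H3K36me2 (11206 genes). The body alone, where fewer genes were tested, left 38 of 222 with more H3K36me2 (10665 of 19607 genes). Untreated levels moved by more than 1 SD as follows. The body alone gave 0.757 for H3K27me1 and 0.633 for H3K27me2, and windows with 0 reads kept gave 0.574 and 0.479. Medians over members were 0.202 for H3K27me3, 0.127 for H3K36me2 and 0.0903 for H3K36me3. Members with every window kept, added after the data were seen, gave 0.778, 0.654, 0.288, 0.267 and 0.162 in the order of the marks.

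Vmn1r minus Vmn2r over the body alone was 0.51 in H3K27me1, 0.68 in H3K27me2, 0.60 in H3K27me3, 0.68 in H3K36me2 and 0.38 in H3K36me3. In quantitative libraries it was 0.35 and 0.41 for H3K27me3 and 0.79 and 0.66 for H3K36me2, after DMSO and the inhibitor. With windows with 0 reads kept the same 9 values were -0.049, 0.13, 0.12, 0.16, -0.12, -0.031, -0.12, 0.15 and 0.075. By medians over members it was 0.51 for H3K27me3, 0.21 for H3K36me2, and 0.32 and 0.17 for quantitative H3K36me2. For H3K27me3 after the inhibitor no log ratio of medians could be taken, as that of Vmn1r was 0 in replicate 1, but Vmn2r was higher in both libraries (0.277 and 0.269, against 0 and 0.212).

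Members in peaks fell with at least 50% of the stretch covered to 16, 5, 2 and 3 in the order H3K27me1, H3K27me2, H3K27me3, H3K36me2 (42.7%, 45.2%, 28.0% and 51.3% of all genes). With the upper 50% of peaks they fell to 29, 6, 1 and 6 (59.1%, 58.9%, 42.5% and 65.7%). Over the body alone 12 met an H3K36me2 peak (71.1%). Depth limits H3K27me3 after the inhibitor most, where 82 members had 0 reads in both libraries and 94 in 1 of them.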

Other observations

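Genes of the 2 families annotated as pseudogenes, which the report leaves out, had higher means of all 5 marks than the protein-coding genes. In H3K27me3 the difference was less than the spread of the 2 libraries. The members Vmn1r-ps103 and Vmn2r-ps130 carry a pseudogene symbol but are annotated as protein-coding, so they were kept. Of 269 pseudogenes with a Vmn1r or Vmn2r symbol on chromosomes 1 to 19, 253 had at least 1 window kept. Their mean level in untreated cells, relative to the genome mean, was 0.871 ± 0.0226 (SD, n = 2) in H3K27me1, 0.624 ± 0.0173 in H3K27me2, 0.272 ± 0.0380 in H3K27me3, 0.335 ± 0.0398 in H3K36me2 and 0.280 ± 0.0217 in H3K36me3. The protein-coding genes had 0.663, 0.553, 0.247, 0.220 and 0.137. The pseudogenes were without windows in 16 cases (5.95%), against 43 of the 354 protein-coding genes. Protein-coding members with every window kept had 0.654 in H3K27me2 and 0.288 in H3K27me3, above the pseudogenes, so the order of these 2 marks turned. The differences were not tested.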
